A study of Homo sapiens with 6 samples.

Results

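The enzymes that write and erase marks on histones, and proteins of the complexes that move nucleosomes, were examined in HEK-293T cells that overexpressed RUNX1. They were taken by gene symbol: symbols that begin with KDM, KMT2, KMT5, KAT, HDAC, SIRT, SETD, PRMT, SMARC or CHD, together with EZH1, EZH2, EED, SUZ12, EHMT1, EHMT2, SUV39H1, SUV39H2, DOT1L, NSD1, NSD2, NSD3, ARID1A, ARID1B, MTA1, MTA2 and MTA3. This gave 110 genes with 171 probes, of 20046 named genes and 47231 probes on the array. The rule uses gene symbols and no measured value, but it was set with earlier results of these data known. Of the 110 genes, 2 are noncoding transcripts (KDM7A-DT and KMT2E-AS1) that carry the prefix of a neighbouring enzyme gene.

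HEK-293T is an established human embryonic kidney line, and it does not express RUNX1 according to the study. Gene expression was compared between cells transduced with a RUNX1 lentivirus and cells transduced with the same kind of virus carrying only a multiple cloning site (MCS), with 3 Illumina HT-12 v4 arrays each. Both groups had received virus at 10 MOI and were then given medium with 1 µg/ml puromycin, which kills untransduced cells. They were harvested on day 7, and how long the puromycin was kept is not stated. The labels state the purpose as finding out whether RUNX1 expression alters these cells. The transduced cells are populations of 1 line, and the labels give no chip, so no batch could be tested.

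DNA in the nucleus is wound around histones, whose tails carry acetyl and methyl groups. Acetyltransferases (KAT) add acetyl groups and loosen chromatin, and deacetylases (HDAC and the NAD-dependent sirtuins) take them off. Methyltransferases of lysine (KMT, SETD, NSD, EZH) and of arginine (PRMT) write marks that are linked to active or to silent genes depending on the residue, and demethylases (KDM) erase them. The SMARC and CHD proteins include motors that use ATP to slide or eject nucleosomes, and some SMARC proteins are other subunits of such complexes. RUNX1, a DNA-binding factor of blood formation that recognises the motif TGTGGT or TGCGGT, binds several of these enzymes as partners.

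Between 18096 and 19321 probes were detected on the RUNX1 arrays and between 18405 and 19080 on the MCS arrays, where detected means a p-value under 0.05 against the negative control probes of the same array. RUNX1 itself gave 1 detected signal of 18 over its 3 probes, on none of the RUNX1 arrays, and the position of its probes relative to the transferred sequence was not examined, so the groups rest on the labels alone. Of 8 marker genes of the kidney line 7 were detected on all 6 arrays, PAX2 on none. Among 7 blood cell markers with a probe only CD14 was detected on all arrays, and PTPRC, SPI1, GATA1 and CD3E on none.

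Most of the histone modifiers and remodelers were measurable. Of the 110 genes, 91 had a probe detected on at least 3 of the 6 arrays and were tested, as were 11129 genes in all. The probe used for the test was detected on all 6 arrays for 84 of these 91 genes. All 8 acetyltransferases with a KAT symbol and all 4 genes of Polycomb repressive complex 2 (EZH1, EZH2, EED and SUZ12) were tested. So were 13 of 14 SMARC and ARID1 genes, 11 of 13 CHD and MTA genes and 17 of 21 other lysine methyltransferases. The counts were 14 of 17 for demethylases, 7 of 8 for arginine methyltransferases, 6 of 7 for sirtuins, 4 of 5 for KMT2 genes and 7 of 11 for deacetylases. The number of member genes with a detected probe was 89, 94 and 89 on the RUNX1 arrays and 91, 95 and 90 on the MCS arrays, so the groups overlapped.

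There were 19 genes without a tested probe. Among the deacetylases HDAC4, HDAC7 and HDAC9 of class IIa, which shuttle between nucleus and cytoplasm, were not tested, nor was HDAC10. On no array was a probe detected for 10 genes, namely HDAC4, HDAC10, SIRT3, KMT2D, PRMT8, SETD1B, SETD7, ARID1B and both noncoding transcripts. The remaining untested genes passed the threshold on 1 or 2 arrays, among them DOT1L, the H3K79 methyltransferase, with 1 of 6 signals, EHMT1, which methylates H3K9, with 4 of 18 signals over its 3 probes, and KDM6B, an H3K27 demethylase, with 1 of 6 signals. Such a gene was not detectable with these probes, which does not show that it was silent.

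**Figure D1:**
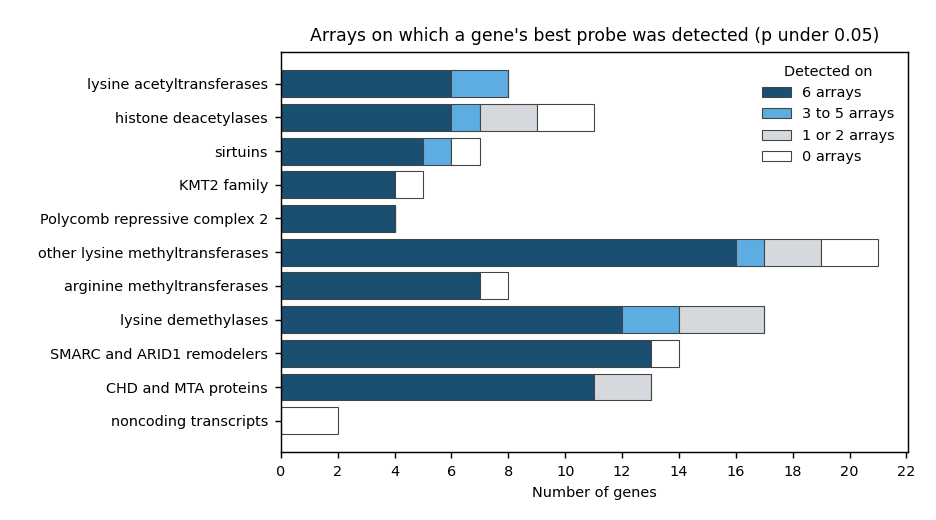
Number of genes (horizontal axis) in each role (rows), divided by the number of arrays on which the gene's most often detected probe passed a detection p under 0.05. All genes of Polycomb repressive complex 2 were detected on 6 arrays, and of the 11 deacetylase genes 2 were detected on none.

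No member differed between RUNX1 and MCS cells at an adjusted p under 0.05 with limma, and the smallest adjusted p among the 91 was 1.00. The same held for all 11129 genes, of which 0% passed. As bulk RNA was measured, fewer cells expressing a gene and less RNA per cell cannot be told apart in any value below. At an unadjusted p under 0.05, which makes no allowance for the number of genes, 0 members were higher with RUNX1, against a background of 1.16% of all genes, and 3 members (KAT6B, PRMT7 and KDM5C) were lower, against a background of 1.1%. Of these 3, KAT6B had no detected signal on the RUNX1 arrays and entered the test only through the MCS arrays. The methods' t-test, unpaired, gave 5 members and 360 genes under 0.05, and none of either after adjustment. By probe, 0 of 117 member probes passed the adjusted threshold, as did 0% of the 18867 probes tested, with 3 member probes and 550 probes in all at an unadjusted p under 0.05. The call changed under 1 alternative, in which each array was weighted by its estimated quality. Then 7 of 91 members passed (EZH2, KAT2A, KAT6B, KDM5C and KMT2E with lower means, KMT5C and SIRT4 with higher ones). So did 897 of all 11129 genes, 513 of them with higher means and 384 with lower ones.

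The differences were small and lay on both sides of 0. On the log2 scale, where 1 unit is a 2-fold difference, the RUNX1 mean was above the MCS mean for 50 members and below it for 41, with a median of 0.028 (all genes 0.021) and a range of -0.84 to 0.45. This split depended on the scaling of the arrays: with median scaling in place of quantile normalization it was 34 above and 57 below. The 95% interval of the difference lay within 2-fold in both directions for 83 of 91 members (91.2%), against 92.4% of all genes, and it reached beyond 2-fold for CHD2, CHD9, KAT6B, KDM5C, KMT2E, NSD3, PRMT6 and SIRT6. For the other members a difference of 2-fold or more in either direction lay outside the interval. Among these only PRMT7 had an interval that left out 0 (-0.96 to -0.25), with no allowance for the number of genes. For the rest, smaller differences could not be told from the spread between 3 arrays, whose median SD within groups was 0.20.

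**Figure D2:**
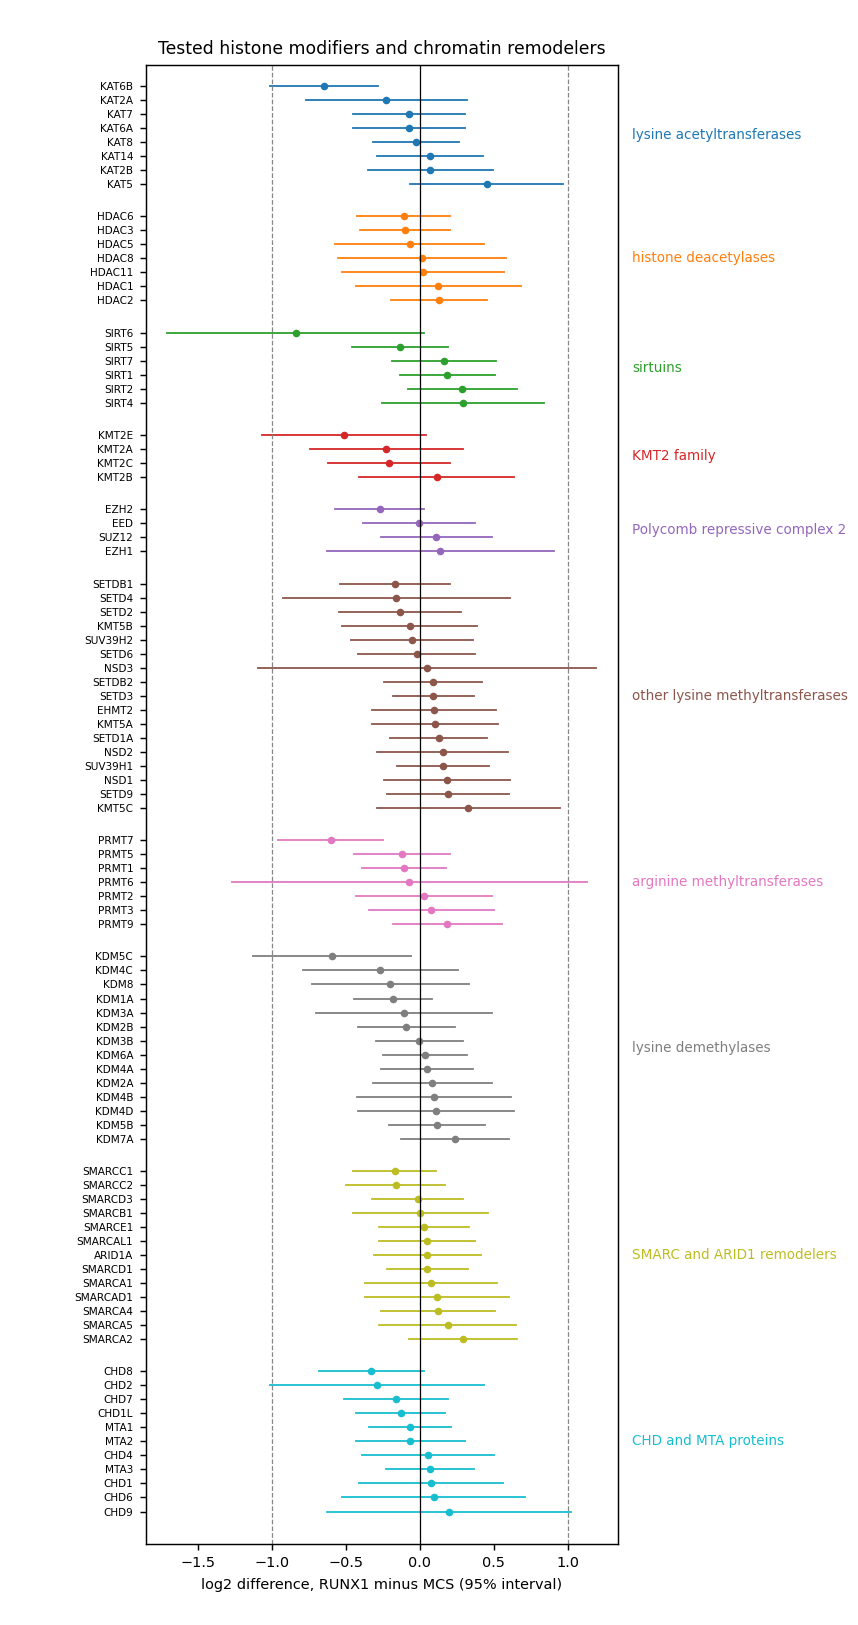
Log2 difference, RUNX1 minus MCS (horizontal axis), of each of the 91 tested genes (rows, grouped by role), with its 95% interval from limma; dashed lines mark 2-fold. The points lie between -0.84 (SIRT6) and 0.45 (KAT5), and 83 of the intervals stay between the dashed lines.

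A difference of 0.5 or more was found for 5 members, all with lower means with RUNX1: SIRT6, KAT6B, PRMT7, KDM5C and KMT2E. For KAT6B this is the fitted value, with RUNX1 signals below detection. The SIRT6 difference is also a fitted value that rests on undetected signals, as its probe was detected on 1 RUNX1 array and on all 3 MCS arrays. Of all genes, 0.746% were lower by as much and 1.15% were higher by as much. The 5 genes gave dim signals, with intensities of at most 141 (KAT6B) to 364 (KMT2E) on any array, where the median intensity of a member was 440. Among the 45 dimmer members the median absolute difference was 0.16 with a median standard error of 0.19, and among the 46 brighter members it was 0.097 with a standard error of 0.15 and no difference above 0.33. The part of signal strength in these 5 values was not tested.

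The 3 members with an unadjusted p under 0.05 are shown with their promoters, since RUNX1 acts through DNA motifs near its targets. The windows run from 250 bases before to 50 bases after the start of the gene in RefSeq (GRCh38.p14), 5′ to 3′ along the strand of the gene, and capitals mark TGTGGT or TGCGGT on either strand (ACCGCA is TGCGGT read on the opposite strand). They lie at chr10:74825005-74825304 on the plus strand for KAT6B, at chrX:53225158-53225457 on the minus strand for KDM5C and at chr16:68310769-68311068 on the plus strand for PRMT7.
KAT6B: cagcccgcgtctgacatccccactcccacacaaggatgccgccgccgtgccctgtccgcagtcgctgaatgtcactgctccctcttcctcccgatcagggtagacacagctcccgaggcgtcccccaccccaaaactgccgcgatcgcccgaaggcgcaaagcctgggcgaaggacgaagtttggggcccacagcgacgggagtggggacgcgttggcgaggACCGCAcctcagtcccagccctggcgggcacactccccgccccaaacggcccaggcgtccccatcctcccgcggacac
KDM5C: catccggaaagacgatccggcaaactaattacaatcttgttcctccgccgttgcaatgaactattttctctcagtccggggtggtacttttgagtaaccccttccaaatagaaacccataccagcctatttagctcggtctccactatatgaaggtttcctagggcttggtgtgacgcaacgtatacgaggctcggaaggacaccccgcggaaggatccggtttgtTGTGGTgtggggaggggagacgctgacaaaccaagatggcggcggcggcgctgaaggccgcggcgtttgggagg
PRMT7: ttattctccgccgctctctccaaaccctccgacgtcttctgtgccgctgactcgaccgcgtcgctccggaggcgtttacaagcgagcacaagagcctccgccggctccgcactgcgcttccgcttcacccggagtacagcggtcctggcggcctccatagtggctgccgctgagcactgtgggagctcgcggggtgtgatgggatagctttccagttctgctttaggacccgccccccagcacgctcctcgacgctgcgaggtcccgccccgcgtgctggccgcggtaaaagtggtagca
The KAT6B window held TGCGGT once, the KDM5C window TGTGGT once and the PRMT7 window neither. Over the 98 members with a promoter in the table, TGTGGT on either strand occurred in 7.14%, against 13.1% of 27305 gene promoters, and TGCGGT in 9.18%, against 7.11%. Either motif was present in 16.3% of the member promoters and in 19.4% of all. A match in a window of this length is a description of the letters and not a bound site.

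Among the acetyltransferases KAT6B stood lowest. KAT6B, which acetylates histone H3 in a complex with BRPF proteins, had log2 values of 5.24, 4.86 and 5.01 on the RUNX1 arrays, against 5.64, 5.55 and 5.87 on the MCS arrays. All RUNX1 values lay below all MCS values, but none of the RUNX1 signals passed the detection threshold, so that KAT6B was tested only through the MCS arrays and its level with RUNX1 is known only as an upper bound. With each RUNX1 array set to the higher of the value itself and the lowest detected signal of the array, the RUNX1 mean was 5.49. Against the mean of 5.69 on the MCS arrays this is 1.15-fold lower, as the smallest gap between the means. That bound carries no interval for the spread between arrays, and it does not establish a decrease. The fitted difference had an unadjusted p of 0.0039 and an adjusted p of 1.00 with limma.

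KAT5, the TIP60 acetyltransferase of the NuA4 complex, had the highest difference of all members. Its kept probe gave 6.65, 6.92 and 7.08 with RUNX1 and 6.01, 6.77 and 6.51 with MCS, a difference of 0.45 ± 0.22 (SE). RUNX1 replicate 1 lay within the MCS range, the exact permutation p was 0.2 (two-sided), and without MCS replicate 1 the difference was 0.24. A second KAT5 probe, detected on all 6 arrays too, ran the other way, with 5.91, 6.02 and 6.33 on the RUNX1 arrays and 6.38, 6.14 and 6.43 on the MCS arrays (difference -0.23). The probes name different transcript records, and together they give no direction for KAT5. KAT6A, a coactivator of RUNX1 that is rearranged in acute myeloid leukaemia, averaged 9.55 ± 0.25 with RUNX1 and 9.62 ± 0.12 with MCS (SD, n = 3 each); its difference of -0.074 became 0.062 when RUNX1 replicate 3 was left out. KAT2A, the GCN5 acetyltransferase of the SAGA complex, had 9.87, 9.85 and 10.27 with RUNX1 and 9.76, 10.49 and 10.43 with MCS, a difference of -0.23 with an interval of -0.77 to 0.32. Its MCS replicate 1 was the lowest of all arrays, so the groups overlapped. KAT2B, KAT7, KAT8 and KAT14 lay between -0.075 and 0.069.

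For the deacetylases the groups were close together. The 7 tested genes had differences between -0.11 (HDAC6, which acts on tubulin in the cytoplasm) and 0.13, with a median of 0.013. HDAC1, a catalytic subunit of the SIN3, NuRD and CoREST corepressors, averaged 13.13 ± 0.29 with RUNX1 and 13.01 ± 0.39 with MCS, and its paralogue and partner HDAC2 11.77 ± 0.13 with RUNX1 and 11.64 ± 0.14 with MCS (SD, n = 3 each). The 95% interval for HDAC2 was -0.20 to 0.45. HDAC1 had high values on RUNX1 replicates 1 and 2 (13.26 and 13.34) and MCS replicate 1 (13.46) and lower ones on the other arrays (12.75 to 12.82), so that its order did not follow the transduction, and without MCS replicate 3 its difference of 0.13 became -0.0055. HDAC3, the deacetylase of the NCoR complex, had a difference of -0.10 with an interval of -0.41 to 0.20. HDAC5, HDAC8 and HDAC11 lay between -0.071 and 0.020.

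The sirtuins held the largest difference of any member, in SIRT6, a nuclear enzyme that deacetylates histone H3 at telomeres and repair sites. SIRT6 had values of 5.27, 5.78 and 5.48 on the RUNX1 arrays and 6.34, 5.58 and 7.13 on the MCS arrays, a difference of -0.84 ± 0.37 (SE) with an interval of -1.71 to 0.026. Its probe was detected on 1 RUNX1 array and on all 3 MCS arrays. RUNX1 replicate 2 lay above MCS replicate 2, so the groups overlapped, and without MCS replicate 3 the difference was -0.45, against -1.23 without MCS replicate 2. The exact permutation p was 0.2 (two-sided), where the smallest that 3 against 3 arrays allow is 0.1.

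By their kept probes the other tested sirtuins lay between -0.13 and 0.29. SIRT2, a mainly cytoplasmic tubulin deacetylase, had 7.32, 6.83 and 7.05 with RUNX1 against 6.80, 6.69 and 6.85 with MCS, a difference of 0.29 ± 0.16 (SE), which was 0.16 without RUNX1 replicate 1. The RUNX1 values were mostly the higher ones, with replicate 2 inside the MCS range. A second SIRT2 probe, detected on 2 RUNX1 and 3 MCS arrays, had a difference of -0.043. SIRT4 of the mitochondria had 8.12, 8.14 and 7.93 with RUNX1, against 8.30, 7.45 and 7.57 with MCS, where MCS replicate 1 exceeded every RUNX1 array, and its difference of 0.29 was 0.56 without that array and 0.13 without MCS replicate 2. SIRT1, the nuclear deacetylase best known for acting on p53, had a difference of 0.19 with an interval of -0.14 to 0.51. SIRT5 of the mitochondria and SIRT7 of the nucleolus had differences of -0.13 for SIRT5 and 0.16 for SIRT7, with overlapping groups in both. The 4 tested SIRT5 probes ran from -0.13 to 0.28 and so gave no direction.

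Of the KMT2 family, which methylates H3K4 at promoters and enhancers, 3 of 4 tested genes had lower means with RUNX1. KMT2E, a divergent member that reads methylated H3K4 through its PHD finger, gave 7.01, 7.22 and 7.71 on the RUNX1 arrays and 7.56, 7.73 and 8.19 on the MCS arrays. The RUNX1 values were the lower ones on the whole, but RUNX1 replicate 3 exceeded MCS replicate 1, so the groups overlapped. The difference was -0.51 ± 0.24 (SE), with an unadjusted p of 0.066, and it was -0.33 without MCS replicate 3. A second KMT2E probe, detected on 2 RUNX1 and 2 MCS arrays, had a difference of 0.26, so that the probes of KMT2E disagreed by 0.77, the widest gap among the 21 members with more than 1 tested probe.

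KMT2A, the MLL protein that RUNX1 is known to bind, averaged 6.57 ± 0.43 with RUNX1 and 6.79 ± 0.11 with MCS (SD, n = 3 each). The difference of -0.23 rested on RUNX1 replicate 3 (6.07), without which it was 0.017. KMT2C, an enhancer methyltransferase, was measured by 3 tested probes with differences from -0.23 to -0.21, none of them past the threshold. KMT2B had a difference of 0.11 with an interval of -0.41 to 0.64.

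In Polycomb repressive complex 2, which trimethylates H3K27, the catalytic subunit EZH2 was lower on every RUNX1 array. EZH2 had 9.58, 9.57 and 9.76 with RUNX1 and 9.79, 9.95 and 9.99 with MCS. The groups did not overlap, by the narrow gap between RUNX1 replicate 3 and MCS replicate 1. The difference was -0.27 ± 0.13 (SE) with an interval of -0.57 to 0.028, an unadjusted p of 0.069 and an adjusted p of 1.00 with limma. The other EZH2 probes had differences of -0.30 and 0.0015, so that 1 of the 3 probes had nearly equal group means.

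The other subunits had groups that overlapped. SUZ12, the scaffold of the complex, averaged 12.20 ± 0.18 with RUNX1 and 12.09 ± 0.19 with MCS, and EED, which binds the mark, 7.002 ± 0.10 with RUNX1 and 7.01 ± 0.25 with MCS (SD, n = 3 each). EZH1, the paralogue of EZH2, ran from 5.56 to 6.76 with RUNX1 and from 5.55 to 6.27 with MCS. Its difference of 0.14 became -0.20 without RUNX1 replicate 3 and -0.064 without MCS replicate 1.

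The other lysine methyltransferases, a group formed by gene symbol and not by tested activity, had 11 positive and 6 negative differences with a median of 0.091. KMT5C, which trimethylates H4K20 in heterochromatin, had the highest difference of the group, 0.33 ± 0.26 (SE), from values of 6.01, 6.30 and 5.33 with RUNX1 and 5.82, 5.36 and 5.49 with MCS. Its RUNX1 arrays included both the highest and the lowest value, its probe was detected on 3 arrays in all, and the difference was 0.12 without RUNX1 replicate 2 but 0.60 without the low RUNX1 replicate 3. SUV39H1, an H3K9 methyltransferase reported to bind RUNX1, averaged 10.74 ± 0.12 with RUNX1 and 10.59 ± 0.11 with MCS (SD, n = 3 each), a difference of 0.16 with an interval of -0.16 to 0.47. SETD9, an enzyme with few known targets, had a difference of 0.19 that was 0.041 without MCS replicate 3.

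The differences of NSD1 and NSD3, which methylate H3K36, depended on the probe or on single arrays. NSD1 had 6.48, 6.501 and 6.61 with RUNX1 and 6.11, 6.21 and 6.71 with MCS by its kept probe (difference 0.18), where MCS replicate 3 exceeded all RUNX1 arrays. Its second tested probe, detected on 1 RUNX1 and 3 MCS arrays, gave -0.36, and the mean of both -0.090. NSD3 had 6.53, 6.31 and 7.75 with RUNX1 and 5.98, 6.94 and 7.53 with MCS, so that each group held both low and high values. The NSD3 difference of 0.049 ranged from -0.39 without RUNX1 replicate 3 to 0.41 without MCS replicate 3. SETD2, which trimethylates H3K36, and SETDB1, an H3K9 methyltransferase that silences retroelements, had intervals that included 0, of -0.55 to 0.28 for SETD2 and -0.54 to 0.21 for SETDB1. By their kept probes the remaining genes of this group (EHMT2, KMT5A, KMT5B, NSD2, SETD1A, SETD3, SETD4, SETD6, SETDB2 and SUV39H2) lay between -0.16 (SETD4) and 0.15 (NSD2). A second tested probe gave -0.26 for SETD3, without overlap, -0.12 for NSD2 and -0.012 for KMT5B. SETD4 varied more within the groups than between them, with 7.39, 7.55 and 8.36 on the RUNX1 arrays and 7.53, 7.77 and 8.47 on the MCS arrays.

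Of the arginine methyltransferases PRMT7 had the smallest p of the role. PRMT7, which places single methyl groups on arginine, had 6.47, 6.71 and 6.33 on the RUNX1 arrays and 7.16, 6.95 and 7.21 on the MCS arrays. All RUNX1 values were below all MCS values, with detection on all 6 arrays. The difference was -0.61 ± 0.15 (SE), a factor of 0.657, with an unadjusted p of 0.0049 and an adjusted p of 1.00 with limma, and it was -0.52 to -0.71 when each array was left out in turn. PRMT7 was measured by 1 probe, so no second probe bears on it.

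PRMT1, the main asymmetric arginine methyltransferase and a modifier of the RUNX1 protein, averaged 11.16 ± 0.10 with RUNX1 and 11.27 ± 0.06 with MCS (SD, n = 3 each). The interval of its difference, -0.39 to 0.18, lay within 2-fold in both directions. PRMT5, the main symmetric arginine methyltransferase, had -0.12 with an interval of -0.45 to 0.20. PRMT2, PRMT3 and PRMT9 lay between 0.026 and 0.19. PRMT6, which methylates H3R2, gave 9.997, 9.98 and 8.35 with RUNX1 and 10.19, 9.50 and 8.85 with MCS, a range of 1.84 over the 6 arrays that only SIRT6 exceeded among the members (1.87). Its second probe ran in parallel with 9.57, 9.58 and 8.40 on the RUNX1 arrays and 9.78, 9.01 and 8.49 on the MCS arrays. Both probes were lowest on RUNX1 replicate 3 and highest on MCS replicate 1, and the difference of -0.073 was 0.47 without RUNX1 replicate 3 and 0.27 without MCS replicate 1.

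**Figure D3:**
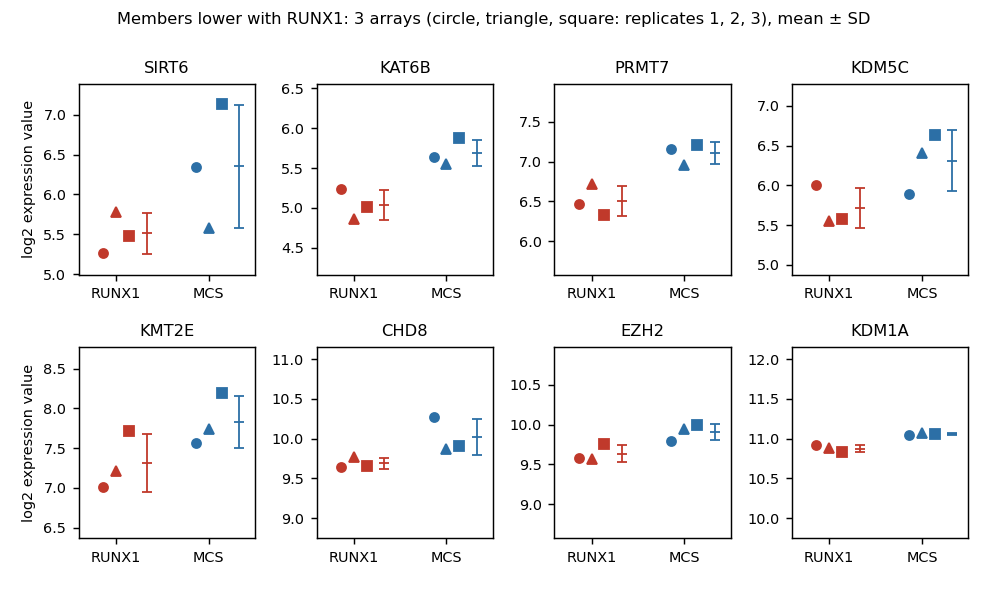
Log2 expression value (vertical axes, each spanning the same number of log2 units) on the 3 RUNX1 arrays (red) and the 3 MCS arrays (blue) of 8 members whose mean was lower with RUNX1; bars give the mean ± SD. KAT6B, PRMT7, CHD8, EZH2 and KDM1A did not overlap between the groups, whereas SIRT6, KDM5C and KMT2E did.

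The demethylases were balanced, with 7 positive and 7 negative differences and a median of 0.017. KDM5C, an X-linked H3K4 demethylase, had 6.01, 5.56 and 5.58 with RUNX1 and 5.89, 6.41 and 6.63 with MCS. RUNX1 replicate 1 exceeded MCS replicate 1, and the other RUNX1 values lay below all MCS values. The difference was -0.59 ± 0.23 (SE), with an unadjusted p of 0.034, an adjusted p of 1.00 with limma and an exact permutation p of 0.2 (two-sided), and it was -0.43 without MCS replicate 3 and -0.81 without MCS replicate 1.

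KDM1A, the H3K4 demethylase LSD1 of the CoREST complex, had one of the tightest sets of values. It gave 10.92, 10.88 and 10.83 on the RUNX1 arrays and 11.04, 11.07 and 11.06 on the MCS arrays, without overlap, a difference of -0.18 ± 0.11 (SE) and an interval of -0.45 to 0.085. KDM7A, which removes dimethyl marks from H3K9 and H3K27, had 7.47, 7.48 and 7.71 with RUNX1 and 7.07, 7.45 and 7.42 with MCS, above all MCS values by a margin that RUNX1 replicates 1 and 2 and MCS replicate 2 left narrow. Its difference was 0.24 ± 0.16 (SE), and 0.12 without MCS replicate 1. KDM6A, the X-linked H3K27 demethylase, had a difference of 0.037 with an interval of -0.25 to 0.32. The remaining demethylases, KDM2A, KDM2B, KDM3A, KDM3B, KDM4A to KDM4D, KDM5B and KDM8, lay between -0.27 (KDM4C) and 0.12 (KDM5B), and the groups overlapped for each of them.

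Among the remodelers the SMARC and ARID1 genes, subunits of SWI/SNF and related motors, had 10 positive and 3 negative differences, with a median of 0.051 and a range of -0.17 to 0.29. SMARCA2, the ATPase BRM, had 7.68, 7.66 and 7.76 with RUNX1 and 7.63, 7.44 and 7.14 with MCS. Every RUNX1 array lay above every MCS array, and the difference was 0.29 ± 0.16 (SE) with an interval of -0.072 to 0.66, and 0.16 without MCS replicate 3. SMARCA4, the alternative ATPase BRG1 and a partner of RUNX1, averaged 10.67 ± 0.12 with RUNX1 and 10.55 ± 0.25 with MCS (SD, n = 3 each), and without MCS replicate 3 its difference of 0.12 was 0.0068. SMARCC1, a core scaffold subunit, had 11.49, 11.39 and 11.48 with RUNX1 and 11.55, 11.72 and 11.60 with MCS, without overlap and with a difference of -0.17 and an interval of -0.45 to 0.11. SMARCB1, the core subunit lost in rhabdoid tumours, had a difference of 0.0026 with an interval of -0.46 to 0.46 by its kept probe. Its second probe, detected on all 6 arrays, gave 8.87, 8.98 and 9.04 with RUNX1 and 9.10, 9.23 and 9.20 with MCS. That difference was -0.21 without overlap and did not pass the adjusted threshold, so the SMARCB1 probes disagreed. By their kept probes the other SMARC subunits and ARID1A lay between -0.16 (SMARCC2) and 0.19 (SMARCA5, the ATPase of the ISWI remodelers), with overlapping groups. A second tested probe gave -0.26 for SMARCC2, without overlap. For SMARCA5 it gave 0.10 and for SMARCD3 0.016, with overlap in both.

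The CHD and MTA proteins had 5 positive and 6 negative differences with a median of -0.065. CHD8, a remodeler that restrains beta-catenin, had 9.64, 9.76 and 9.66 on the RUNX1 arrays and 10.28, 9.86 and 9.91 on the MCS arrays. The groups did not overlap, and MCS replicate 1 stood above the other MCS arrays. The difference was -0.33 ± 0.15 (SE), with an unadjusted p of 0.064 and an adjusted p of 1.00 with limma, and it was -0.20 without MCS replicate 1. CHD2 had 6.91, 6.98 and 7.96 with RUNX1 and 7.26, 7.59 and 7.88 with MCS, where RUNX1 replicate 3 was the highest of all arrays, and its difference of -0.29 was -0.63 without that array and -0.11 without RUNX1 replicate 1. CHD4, the ATPase of the NuRD complex, and its partners MTA1, MTA2 and MTA3 had differences of 0.052, -0.068, -0.065 and 0.067. CHD1, CHD1L, CHD6 and CHD7, the last of which is mutated in CHARGE syndrome, lay between -0.16 (CHD7) and 0.092 (CHD6).

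The order of the arrays was counted over all roles by the kept probe of each gene. For 2 members (SMARCA2 and KDM7A) every RUNX1 array lay above every MCS array, 2.20% of the members against 3.81% of all genes. In the other direction 6 members (KAT6B, PRMT7, CHD8, EZH2, KDM1A and SMARCC1) had every RUNX1 array below every MCS array, 6.59% against 2.75%. With 3 arrays a side such an order has an exact permutation p of 0.1 (two-sided), the smallest of the 20 ways to label the arrays, and none of the 8 genes passed the adjusted threshold with limma. One of the 6 lower genes, KAT6B, was not detected on the RUNX1 arrays.

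**Figure D4:**
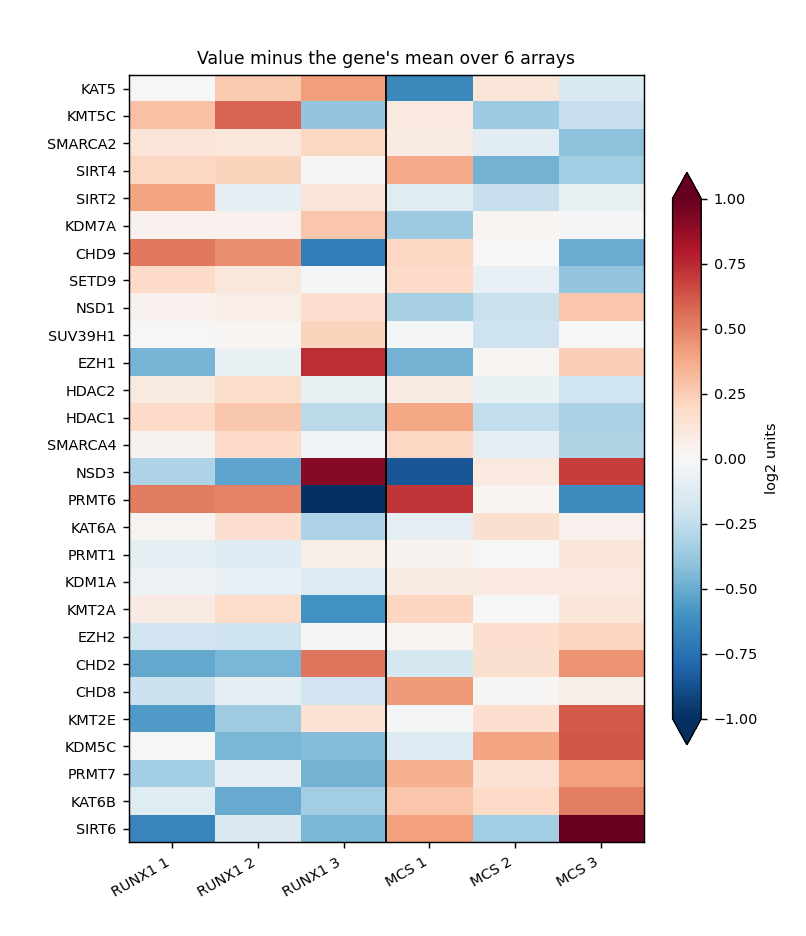
Log2 value minus the gene's mean over 6 arrays (colour, red higher, blue lower; values beyond 1 unit take the end colour) of 28 members (rows, ordered by difference, highest at the top) on the RUNX1 arrays (left of the line) and the MCS arrays (right). PRMT6, CHD9 and NSD3 vary more within each group than between the groups, and KAT6B and PRMT7 are on 1 side of their mean in each group.

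The widest variation among the members did not follow the transduction. The first principal component of the 91 members held 54.9% of their variance, with scores of -1.60, -1.56 and 2.35 on the RUNX1 arrays and -1.72, 0.35 and 2.18 on the MCS arrays, and that of all genes held 66.7%. RUNX1 replicates 1 and 2 and MCS replicate 1 had negative scores, and the others positive ones, so that each group held both signs. Correlations between arrays across the members, which are not independent replicates, were 0.969 to 0.994 within groups and 0.963 to 0.9895 between groups. PRMT6, CHD9, KMT5C and HDAC1 weighed most on the negative side, and NSD3, SETD4, CHD2 and EZH1 on the positive side. CHD9, a remodeler, had 10.62, 10.56 and 9.41 with RUNX1 and 10.30, 10.09 and 9.60 with MCS, and its difference of 0.20 ranged from -0.015 without RUNX1 replicate 1 to 0.59 without the third RUNX1 array, and was -0.0010 without MCS replicate 3.

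**Figure D5:**
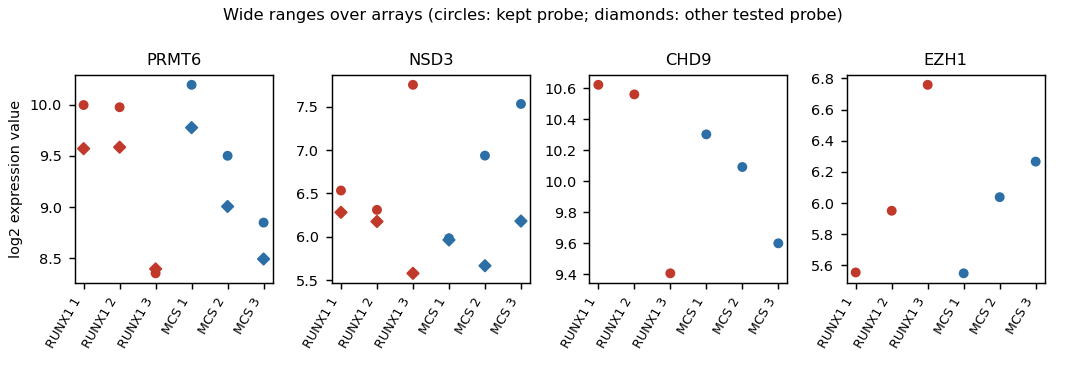
Log2 expression value (vertical axes, scaled to each gene) of PRMT6, NSD3, CHD9 and EZH1 on each array, RUNX1 in red and MCS in blue; circles are the probe used for the gene and diamonds a second tested probe. Both PRMT6 probes were lowest on RUNX1 replicate 3 and highest on MCS replicate 1, and the 2 NSD3 probes did not move together.

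Where a gene had several tested probes, these often disagreed in sign. Of the 21 members with at least 2, 6 had the same sign in every probe (SMARCC2, SMARCA5, KMT5B, CHD6, NSD3 and KMT2C), and the median gap between the probes of a gene was 0.17. This was close to the median standard error of a member's difference, 0.16.

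The partners of these enzymes were counted in the same fit. They are subunits, readers and further enzymes that the symbols above leave out, among them the acetyltransferases EP300, CREBBP and HAT1. Of 177 listed genes 148 were tested, 0 passed the adjusted threshold, and the differences had a median of -0.014 and a range of -0.44 (PHC2 of Polycomb repressive complex 1) to 0.43 (HCFC2 of the KMT2 complexes). At an unadjusted p under 0.05 with limma, 1 of 148 was higher (SMYD5) and 1 lower (EP300), against backgrounds of 1.16% and 1.1% of all genes. Every RUNX1 array lay below every MCS array for 2.70% of the partners, against 2.75% of all genes. The opposite order held for 2.70% of the partners, against 3.81% of all genes. EP300, the acetyltransferase p300 and a coactivator of RUNX1, had 6.87, 6.68 and 6.47 with RUNX1 and 7.14, 7.02 and 7.08 with MCS, a difference of -0.41 ± 0.14 (SE) without overlap, with an adjusted p of 1.00 with limma. SMYD5, a methyltransferase-like protein, had a difference of 0.41 ± 0.15 (SE).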

How the data were processed

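Total RNA of HEK-293T cells was amplified and hybridized by the authors to Illumina HT-12 v4 BeadChips, 3 arrays per transduction. The authors deposited the intensity of each probe on a linear scale, without background correction or normalization, and beside it a detection p-value. They also deposited processed values made with lumi (version not given in the sources used here), treated here as log2, whose transformation is not stated. The neqc function (limma 3.58.1, R 4.3.3) estimated the background from the detection p-values, added an offset of 16, quantile-normalized the arrays and took log2. Symbols came from the platform annotation, which gives 1 symbol to 30113 of 47231 probes. Each gene was represented by its brightest probe with a detection p under 0.05 on 3 or more arrays. The transductions were compared with lmFit and eBayes, without covariates, and Benjamini-Hochberg adjustment ran over all 11129 genes. The number of arrays limits the precision. The paper calls the microarray replicates biological triplicates, but nothing in the labels shows whether they were separate cultures. The p-values therefore measure the spread between these samples.

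The members, the roles, the list of partners and the tests were chosen with earlier results of these data known. Genes named in the text are the 8 highest and 8 lowest differences, the smallest p of each role, 8 known partners of RUNX1, the 5 widest ranges and the 3 members whose probes disagree most. The others named were chosen after their values were seen, for their role. A check of the test on simulated data is not reported here. Alternatives were other background corrections and normalizations, the processed values, other detection filters, the mean of probes, the methods' t-test, array weights, a block for the replicate number, and each array left out in turn. The replicate numbers were not taken to pair the arrays: deviations of arrays with the same number correlated at 0.57, -0.35 and 0.70.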

Additional observations from a re-analysis of the deposited data

How the results depend on the processing

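Under every alternative but 1 of the 17 no member passed an adjusted p under 0.05, including each array left out in turn, the methods' t-test and the replicate block (0 members, 6 at an unadjusted p under 0.05; 523 of all genes, against 251 without the block). The exception was array weights (0.28 for RUNX1 replicate 3, 0.31 for MCS replicate 1 and 4.20 for MCS replicate 2). With them 7 of 91 members passed (EZH2, KAT2A, KAT6B, KDM5C and KMT2E lower, KMT5C and SIRT4 higher). Beside them 897 of 11129 genes in all (513 higher, 384 lower) and 4 of 148 partner genes passed, but 0 member probes when all probes were tested. The smallest adjusted p of a named member was 0.045 with array weights and 0.64 under the other alternatives. Of 472 alternative values of the 28 named members 448 kept direction and side of the threshold, 6 passed it and 18 reversed. Reversals with array weights were EZH1 (-0.17), KMT2A (0.061), NSD3 (-0.48) and PRMT6 (0.43), with the mean of detected probes NSD1 (-0.090) and PRMT6 (0.0098), and with median scaling NSD3 (-0.057). Leaving out 1 array gave ranges across 0 for CHD9 (-0.015 to 0.59), EZH1 (-0.20 to 0.40), HDAC1 (-0.0055 to 0.35), KAT6A (-0.18 to 0.062), KMT2A (-0.38 to 0.017), NSD3 (-0.39 to 0.41) and PRMT6 (-0.41 to 0.47). The cause of these reversals was not tested. Signal close to background limits KAT6B, KMT5C and SIRT6, each detected on 3 or 4 arrays. With a stricter detection filter 83 members were tested and none passed.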
